A study of Mus musculus with 6 samples.

Results

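The 10 genes described here encode integrin alpha and beta chains of lymphocytes: Itgae, Itgb7, Itga4, Itgb1, Itga6, Itgal, Itgb2, Itgav, Itgb8 and Itgb3. They were chosen by gene symbol from 53379 gene identifiers, by a rule that holds no measured value. The choice was made with earlier results of these data known, and all 10 passed the filter on low counts. RNA was sequenced from sorted regulatory T cells (Tregs, the CD4 T cells that express FOXP3 and hold other immune cells in check) taken from 3-month-old C57BL/6 mice. The 3 bKO libraries came from mice of genotype Foxp3YFP-CrexJunbFlox/Flox and the 3 WT libraries from mice of genotype Foxp3YFP-CrexJunb+/+, so the Foxp3YFP-Cre allele was present in every library. Cre made from the Foxp3 locus removes loxP-flanked sequence in cells that express Foxp3, here Junb, the gene of an AP-1 transcription factor subunit. The labels give neither the organ, nor the sort gate, nor whether each library came from 1 animal.

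Integrins are receptors built from 1 alpha and 1 beta chain, and a chain can have several partners. They carry T cells out of vessels and hold them on other cells or on matrix after inside-out signals, passed through talin and kindlin, have switched them to a binding state. In Tregs, integrin alpha E with beta 7 (CD103) binds E-cadherin on epithelium, alpha 4 with beta 7 binds MAdCAM-1 in gut vessels, alpha 4 with beta 1 binds VCAM-1, alpha L with beta 2 (LFA-1) binds ICAMs, and alpha V with beta 8 releases active TGF-beta from its latent form.

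Totals lay between 33784183 and 41231173 counts per library, and Foxp3 stood between 28.1 and 39.5 CPM (counts scaled to a common library size with TMM factors) in every library. Junb, the targeted gene, stood at 57.1, 57.3 and 49.6 CPM in bKO replicates 1 to 3 and at 87.1, 77.5 and 89.5 CPM in WT replicates 1 to 3, with no overlap between genotypes. Foxp3 shares 853 bases of exon with the annotated gene Flicr and fewer with each of Ppp1r3f, Gm36995 and Ccdc22. Junb shares 173 bases of exon with Prdx2 on the other strand, so both counts are uncertain there. The summed level of 9 Treg identity genes was 1549 CPM in bKO replicate 1 and lay between 2634 and 3559 CPM in the other 5 libraries. bKO replicate 1 also had the highest sum of 6 erythroid genes, 7672 CPM, where the other libraries had 77.0 to 2768 CPM. Markers of other cells were present throughout: the sum of 10 B cell genes was 731, 622 and 556 CPM in bKO replicates 1 to 3 and 193, 1145 and 134 CPM in WT replicates 1 to 3. The sum of 12 myeloid genes was 992, 1318 and 542 CPM in the same bKO libraries and 383, 1223 and 229 CPM in the WT libraries, and no gene of either list was at 0 in all libraries. The names of the deposited tables carry a number that divides the libraries into set A (bKO replicate 2, WT replicates 1 and 2) and set B (bKO replicates 1 and 3, WT replicate 3), and the labels do not say what it stands for. In bulk RNA, fewer cells of a type and less RNA per cell cannot be told apart.

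Per length of exon, the beta chains Itgb2 and Itgb7 stood highest and Itgb8 lowest. Over all 6 libraries the level averaged 145.5 RPKM (CPM per kilobase of annotated exon) for Itgb2, 129 for Itgb7, 59.9 for Itgal, 42.6 for Itgb1 and 13.5 for Itga4. It averaged 7.58 RPKM for Itgae, 7.10 for Itga6, 5.24 for Itgb3, 3.29 for Itgav and 2.195 for Itgb8. Only 2 steps of this order separated every library: the lowest Itgb7 value, 99.6 RPKM, was above the highest Itgal value, 69.4 RPKM, and the lowest Itgb1 value, 30.7 RPKM, was above the highest Itga4 value, 14.7 RPKM. All other neighbours overlapped between libraries. On a log scale Itgae had the broadest range of the 10, 1.87 to 16.2 RPKM. The annotated exons of Itga4 sum to 13978 bases over all its transcripts, so its RPKM is understated if Tregs make shorter ones.

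**Figure D1:**
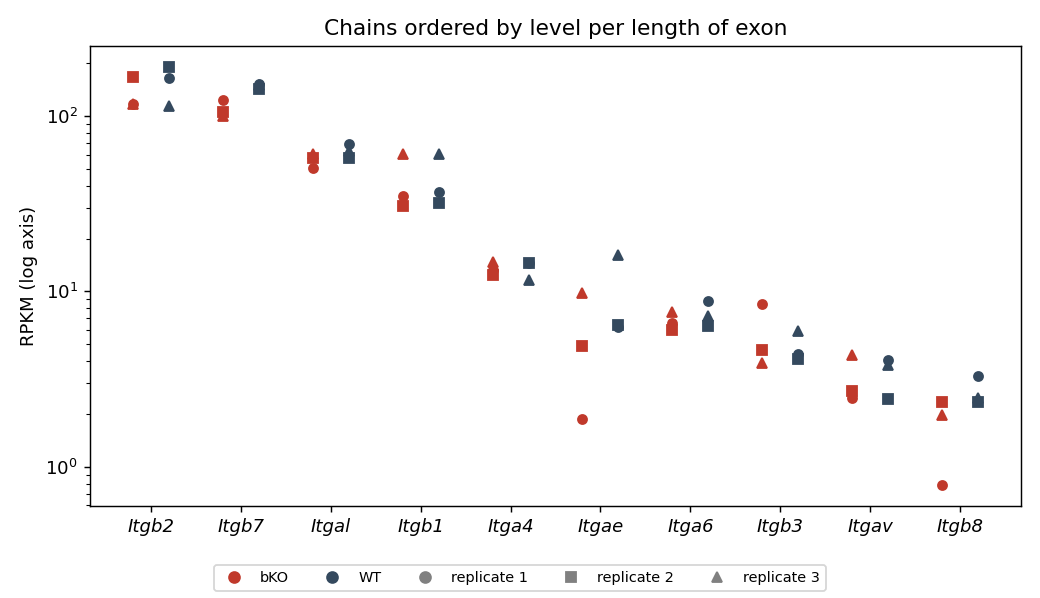
Levels of the 10 integrin chains in RPKM on a log axis, ordered by the mean over all libraries, with bKO libraries left of WT libraries and 1 symbol per replicate number. Itgb2 and Itgb7 lie at 99.6 RPKM or above in every library, and Itgae spreads from 1.87 to 16.2 RPKM.

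The comparison of bKO with WT asked which of these chains differ in RNA level between the genotypes. Junb itself, at 64.5% of its WT mean in bKO, was not called by edgeR either (adjusted p = 0.9999). By edgeR's quasi-likelihood test, adjusted over all 20475 genes tested, 0 of the 10 chains were called, where 0% of all genes were, and each chain had an adjusted p of 0.9999. At an unadjusted p under 0.05 the count was 1 of 10, Itgb7, against 2.88% of all genes (590), and DESeq2 (63 of 23198 genes, 0.272%) and limma-voom (0% of all genes) called 0 of the 10. Itgb7 was also the only chain whose bKO and WT libraries did not overlap, against 7.76% of all genes. The log2 difference (bKO minus WT) was below 0 for 9 chains and above 0 for Itgb3, with a median of -0.16. Over all genes tested 49.1% were below 0 and the median was 0.0055. The split was also 9 to 1 with DESeq2-type size factors and with library totals alone, 8 to 2 with limma-voom, with the set as a term in the edgeR fit and without WT replicate 2 or 3, and 7 to 3 without bKO replicate 1, bKO replicate 2 or WT replicate 1. Log2 differences of Treg state genes are set beside those of the chains: 9 of 9 Treg identity genes (median log2 difference -0.42) and 10 of 12 effector Treg genes (median -0.38) were below 0, and 9 of 10 conventional CD4 T cell genes (median 0.31) were above 0, with 0 called by edgeR. The sum of effector Treg genes was 389 to 726 CPM in bKO and 813 to 878 CPM in WT, and that of conventional CD4 T cell genes was 1120 to 1731 CPM in bKO and 1003 to 1228 CPM in WT. Gene by gene, 1 of 9 identity, 4 of 12 effector and 2 of 10 conventional genes had no overlap (all genes 7.76%). An unadjusted edgeR p under 0.05 was found for 0, 3 and 2 of them in the same order (all genes 2.88%). These 3 lists, like the chains, were chosen with earlier results of these data known. No gene of the 3 lists was at 0 in all libraries, and their part in the differences of the chains was not tested. Because the labels name no separate animals or cultures, the spread behind each p-value may be technical.

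**Figure D2:**
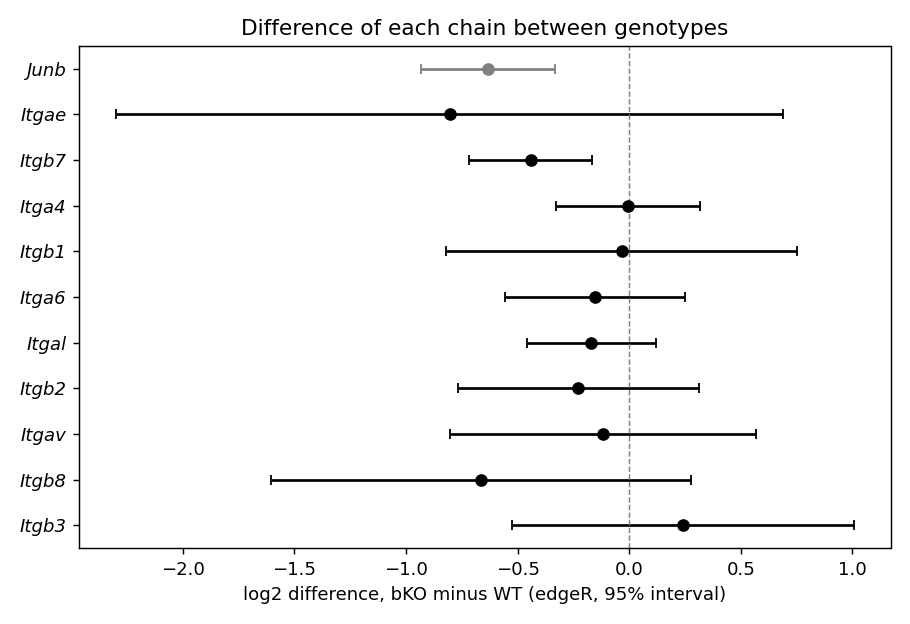
Log2 difference (bKO minus WT) of Junb and of each integrin chain from the edgeR fit, with its 95% interval and 3 libraries per genotype. The intervals of Junb (-0.93 to -0.33) and Itgb7 (-0.72 to -0.17) lie below 0, and those of the other 9 chains include 0.

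Itgb7 encodes the beta 7 chain, the partner of alpha E and of alpha 4 in receptors for epithelium and gut vessels (ENSMUSG00000001281.9, chromosome 15, positions 102215995 to 102231944 of GRCm38, minus strand). It stood at 341, 291 and 276 CPM in bKO replicates 1 to 3 and at 419.7, 395 and 418 CPM in WT replicates 1 to 3. Every bKO library was below every WT library, and the 3 WT values lay close together. The means were 303 ± 34.1 CPM in bKO and 411 ± 14.2 CPM in WT (SD, n = 3 each, as for all means given), which puts bKO at 73.6% of WT. On the log2 scale bKO differed from WT by -0.44 (SE 0.12), with a 95% interval of -0.72 to -0.17. By edgeR this had an unadjusted p of 0.00678 and an adjusted p of 0.9999, and DESeq2 gave an adjusted p of 0.122. An exact permutation test (two-sided) gave p = 0.1, below which 3 against 3 libraries cannot go. Leaving out each library in turn gave log2 differences between -0.54 and -0.38. B cells also express Itgb7, and the sum of B cell genes was 1145 CPM in WT replicate 2 and 134 CPM in WT replicate 3. The part of such cells in the Itgb7 level was not tested.

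The 250 bases before the annotated start of Itgb7 are shown because it is the chain with separated genotypes and JunB binds AP-1 motifs. They lie at chr15:102231936-102232185 on the minus strand (RefSeq, GRCm38.p6), and no base is in capitals because neither motif searched was found.
Itgb7: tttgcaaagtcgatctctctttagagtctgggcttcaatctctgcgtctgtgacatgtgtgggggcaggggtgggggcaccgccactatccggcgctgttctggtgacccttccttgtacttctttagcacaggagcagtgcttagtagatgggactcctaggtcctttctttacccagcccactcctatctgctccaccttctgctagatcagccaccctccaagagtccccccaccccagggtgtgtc
The motifs were TGANTCA and TGACGTCA, each of which reads the same on both strands, and neither contains the other. Windows from 250 bases before to 50 after the start were in the RefSeq table for 5 of the 10 chains (Itgb7, Itga4, Itgb1, Itgav and Itgb8), and 0 of the 5 held either motif. Of all 32851 RefSeq windows, 7.81% held TGANTCA and 1.79% held TGACGTCA. These letters were looked for in these windows and nowhere else in the loci.

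Itgae encodes alpha E, the chain known as CD103, which marks effector Tregs in tissues and pairs with beta 7 alone (ENSMUSG00000005947.11, chromosome 11, positions 73090583 to 73147446, plus strand). It stood at 8.59, 22.2 and 45.0 CPM in bKO replicates 1 to 3, against 28.8, 29.4 and 74.3 CPM in WT replicates 1 to 3. The genotypes overlapped, since bKO replicate 3 was above 2 WT libraries, and the highest library of each genotype was replicate 3. The means were 25.3 ± 18.4 CPM in bKO and 44.1 ± 26.1 CPM in WT. A log2 difference of -0.80 (SE 0.63) had a 95% interval of -2.30 to 0.69, the widest among the 10 chains. The difference was -0.40 without bKO replicate 1, -0.21 without WT replicate 3 and -1.52 without bKO replicate 3, and it was not called in any of these fits by edgeR. bKO replicate 1, the lowest library for Itgae, was also the library with the low sum of Treg identity genes. The part of that in the Itgae difference was not tested.

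Itga4 encodes alpha 4, shared by the gut-homing receptor with beta 7 and by VLA-4 with beta 1 (ENSMUSG00000027009.18, chromosome 2, positions 79255426 to 79333123, plus strand). Its level was 185, 173 and 206 CPM in bKO replicates 1 to 3, against 202, 203 and 161 CPM in WT replicates 1 to 3. The libraries overlapped fully, with a mean of 188 ± 16.5 CPM in bKO and 189 ± 23.8 CPM in WT. The log2 difference of -0.0061 (SE 0.14) had a 95% interval of -0.33 to 0.32, and its sign changed between the alternatives. The exons of Itga4 share 1124 bases with those of Cerkl on the other strand, and reads of the 2 genes cannot be told apart there because the labels do not say whether strand was used.

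Itgb1 encodes beta 1, the common partner of alpha 4, alpha 6 and other alpha chains that bind matrix (ENSMUSG00000025809.15, chromosome 8, positions 128685654 to 128733200, plus strand). It was measured at 143, 125 and 248 CPM in bKO replicates 1 to 3 and at 151, 130.5 and 246 CPM in WT replicates 1 to 3. Replicate 3 of each genotype stood apart from the other 4 libraries and at nearly the same level. The means were 172 ± 66.4 CPM in bKO and 176 ± 61.9 CPM in WT, with a log2 difference of -0.034 (95% interval -0.82 to 0.75). Itga6, whose product pairs with beta 1 in a laminin receptor, had 59.6, 54.0 and 68.5 CPM in bKO replicates 1 to 3, against 79.9, 56.9 and 65.4 CPM in WT replicates 1 to 3 (ENSMUSG00000027111.15, chromosome 2, positions 71745616 to 71858416, plus strand). Its values overlapped between genotypes, and replicate 3 did not stand apart in it. The log2 difference of Itga6 was -0.15 (95% interval -0.56 to 0.25), and it lay between -0.26 (without WT replicate 2) and -0.012 (without WT replicate 1) when single libraries were left out.

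Itgal and Itgb2 encode the chains of LFA-1, which holds T cells on cells that carry ICAMs. Itgal stood at 334, 378 and 399 CPM in bKO replicates 1 to 3 and at 456, 377 and 415 CPM in WT replicates 1 to 3 (ENSMUSG00000030830.18, chromosome 7, positions 127296260 to 127335138, plus strand). The values overlapped, with a log2 difference of -0.17 (SE 0.12, 95% interval -0.46 to 0.12). Itgb2 stood at 359, 512 and 357 CPM in bKO replicates 1 to 3 and at 505, 583 and 349.6 CPM in WT replicates 1 to 3 (ENSMUSG00000000290.13, chromosome 10, positions 77530252 to 77565708, plus strand). For Itgb2 the log2 difference came to -0.23 (SE 0.23, 95% interval -0.77 to 0.31), and the highest library of each genotype was replicate 2. The difference moved to -0.063 without WT replicate 2, -0.42 without bKO replicate 2 or WT replicate 3 and -0.027 with a set term. Myeloid cells also carry beta 2 integrins, and replicate 2 had the highest sum of myeloid genes in each genotype, 1318 CPM in bKO and 1223 CPM in WT. The part of such cells in the Itgb2 level was not tested.

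Alpha V and beta 8 form the receptor through which Tregs activate latent TGF-beta. Itgb8 had 8.69, 25.8 and 21.8 CPM in bKO replicates 1 to 3, against 36.2, 25.7 and 27.4 CPM in WT replicates 1 to 3 (ENSMUSG00000025321.14, chromosome 12, positions 119158022 to 119238802, minus strand). Only bKO replicate 2 reached the WT range, and bKO replicate 1 was far below it. The means were 18.8 ± 8.97 CPM in bKO and 29.8 ± 5.67 CPM in WT, a log2 difference of -0.66 (SE 0.40, 95% interval -1.60 to 0.28) that was not called by edgeR. Without bKO replicate 1 the Itgb8 difference was -0.32. Itgav had 26.4, 29.0 and 46.4 CPM in bKO replicates 1 to 3, against 43.6, 26.1 and 40.7 CPM in WT replicates 1 to 3 (ENSMUSG00000027087.11, chromosome 2, positions 83724397 to 83806916, plus strand). Its libraries overlapped, with a log2 difference of -0.12 (95% interval -0.80 to 0.57), and 634 bases of its exons are shared with the non-coding gene Gm13684 on the other strand.

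Itgb3 encodes beta 3, which pairs with alpha V in a vitronectin receptor and, in platelets, with alpha IIb (ENSMUSG00000020689.4, chromosome 11, positions 104608000 to 104670476, plus strand). It stood at 50.2, 27.2 and 23.0 CPM in bKO replicates 1 to 3 and at 26.0, 24.2 and 34.9 CPM in WT replicates 1 to 3. bKO replicate 1 was the highest library and the other bKO libraries lay within or just below the WT range. It was the only chain with a higher mean in bKO, with a log2 difference of 0.24 (SE 0.32, 95% interval -0.53 to 1.01) that became -0.18 without bKO replicate 1. The erythroid sum was also highest in bKO replicate 1, then in WT replicate 3 (2768 CPM) and bKO replicate 2 (1632 CPM), the same first 3 libraries as for Itgb3. The part of that in the Itgb3 level was not tested. Platelet RNA was scarce: the summed level of 10 platelet and megakaryocyte genes was 2.74 to 4.45 CPM in bKO libraries and 1.07 to 5.49 CPM in WT libraries, with Treml1 and Tubb1 at 0 in every library. Within that list Gp9, a platelet glycoprotein chain, had 2.33, 1.09 and 0.65 CPM in bKO replicates 1 to 3 and 0.029, 0 and 0 CPM in WT replicates 1 to 3, and Gp1ba, at 0.60 to 0.70 CPM in bKO and 0 to 0.52 CPM in WT, did not overlap either. Of the 5 genes of the list that were tested, 2 had no overlap, where 7.76% of all genes had none. Gp9 was highest in bKO replicate 1, as Itgb3 was, but Gp1ba was highest in bKO replicate 3 (0.70 CPM), where Itgb3 was lowest. The sum of the list was highest in WT replicate 1 (5.49 CPM), and the part of platelets in the Itgb3 level was not tested. Itga2b, which encodes alpha IIb, had 0.053, 0.23 and 0.30 CPM in bKO replicates 1 to 3 and 3.50, 1.75 and 0.20 CPM in WT replicates 1 to 3.

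**Figure D3:**
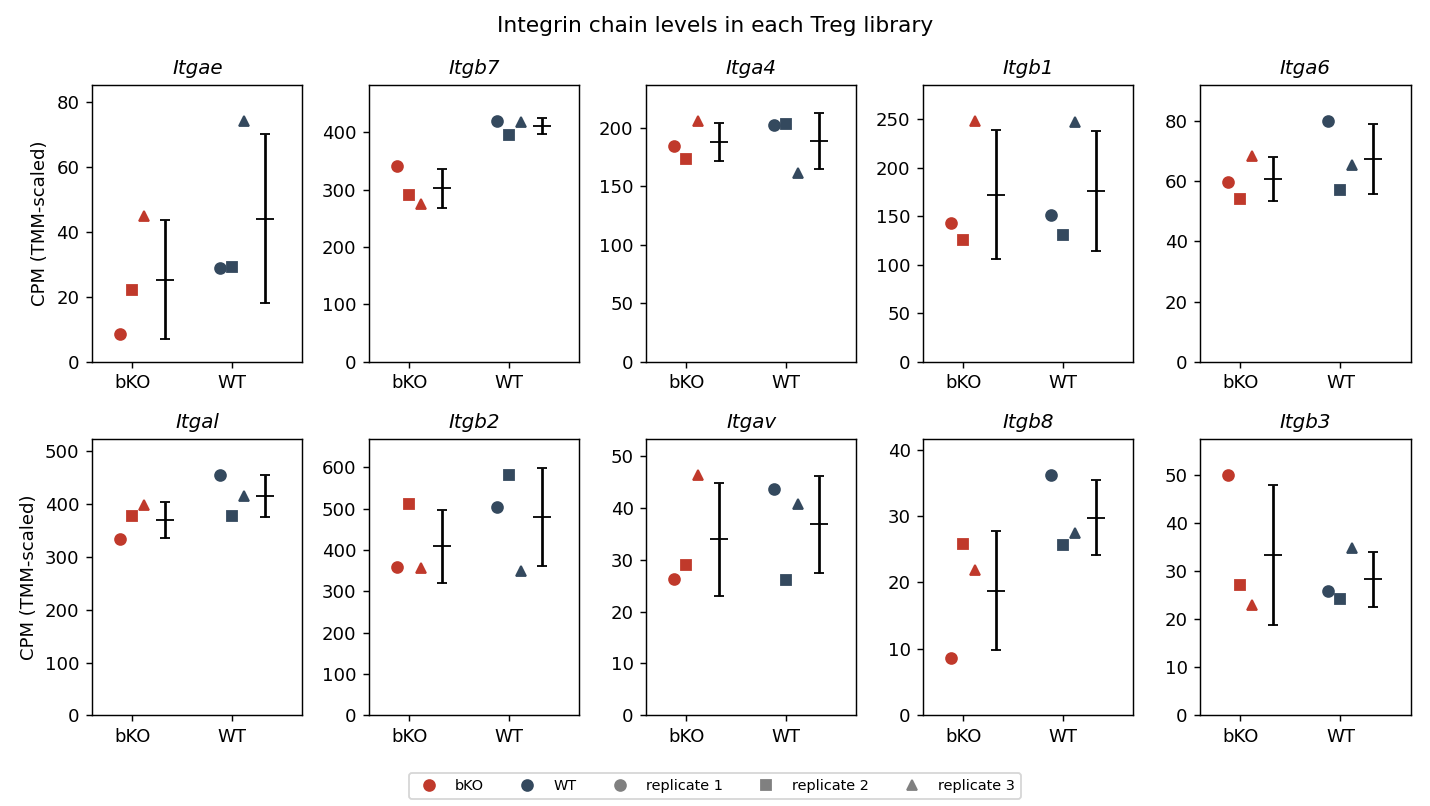
CPM of each integrin chain in every library, bKO left of WT, with 1 symbol per replicate number and the mean and SD of 3 libraries in black. Itgb7 shows 3 bKO values (276 to 341 CPM) below 3 WT values (395 to 419.7 CPM), while in Itgb1 replicate 3 of each genotype lies at 246 to 248 CPM above the rest.

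Ratios of chains within a library do not depend on its scaling, and 9 pairs were compared, among them Itgb7 against Itgb1 for 2 partners of alpha 4. The log2 ratio of Itga4 to Itgb7 counts was -0.89, -0.75 and -0.42 in bKO replicates 1 to 3, against -1.06, -0.96 and -1.38 in WT replicates 1 to 3. It was higher in each bKO library than in every WT library, with a mean difference of 0.45. The exact permutation p was 0.1, the smallest possible, and 0.9 after adjustment over the 9 pairs. The ratio of Itgav to Itgb8 differed by 0.66 in log2, at 1.60, 0.17 and 1.09 in bKO replicates 1 to 3 and 0.27, 0.026 and 0.57 in WT replicates 1 to 3, with overlap (exact permutation p = 0.3). The ratio of Itgae to Itgb7 ran from -5.30 to -2.61 in bKO and from -3.86 to -2.49 in WT. In the ratio of Itgal to Itgb2, the LFA-1 chains, the difference was 0.048, and in Itga4 to Itgb1, the VLA-4 chains, it was 0.043. Genotypes overlapped in 8 of the 9 pairs, and each adjusted p was 0.9. Of all genes taken singly, 7.76% had no overlap. The separated ratio uses the same Itgb7 counts as above and is not a second result. Taken alone, Itgb7 differed by -0.44 and Itga4 by -0.0061 in log2.

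**Figure D4:**
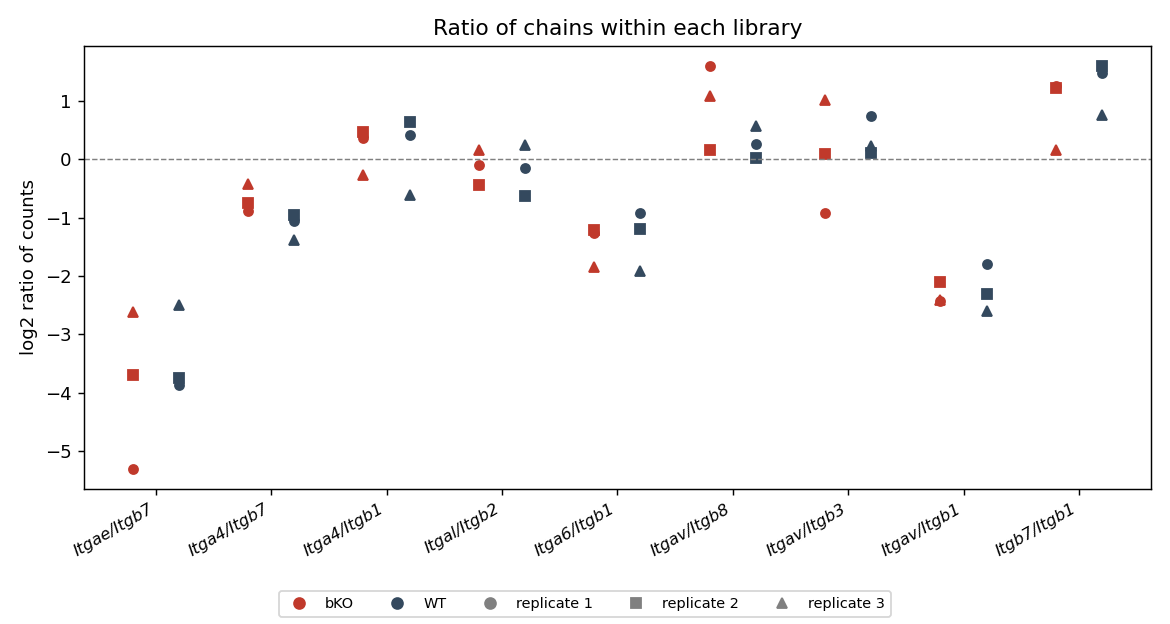
Log2 ratio of the counts of paired chains in every library, bKO left of WT, with 1 symbol per replicate number. The ratio of Itga4 to Itgb7 lies at -0.89 to -0.42 in bKO and -1.38 to -0.96 in WT, and the other 8 pairs overlap. The separated ratio uses the Itgb7 counts, whose genotypes are separated on their own.

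Comparisons were also made within the sets given by the numbers in the table names. The only bKO library of set A was bKO replicate 2, and the only WT library of set B was WT replicate 3. Each difference within a set therefore rests on a single library of a genotype. The log2 difference of Itgb7 was -0.48 within set A and -0.45 within set B. That of Itgae was -0.39 and -1.91, and that of Itgb8 was -0.24 and -0.99, in the same order. Itga4, Itgb2 and Itgb3 changed sign between the sets.

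Genes whose pattern over the 6 libraries was nearest to 2 of the chains were found by the root mean square difference of log2 CPM, each gene centred on its mean, among 10204 genes with at least 10 CPM on average. The 3 nearest to Itgae were Mmd, Ada, the gene of adenosine deaminase, and Larp1b, at 0.30, 0.33 and 0.38 on the log2 scale. Nearest to Itgb8 were Dpp7, Ptprv and Il2ra, the gene of the high-affinity IL-2 receptor chain, at 0.14, 0.16 and 0.17. Il2ra stood at 60.4, 152 and 149.7 CPM in bKO replicates 1 to 3 and at 200.1, 173 and 138 CPM in WT replicates 1 to 3. It was picked for its likeness to Itgb8 over these libraries, so a shared lowest library, bKO replicate 1, adds nothing further.

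The other 17 integrin chains were scarce, and of the 12 that passed the filter 0 were called by edgeR, with 8 log2 differences above 0 and 4 below. Itgam, the alpha chain of Mac-1, had 9.72, 19.2 and 10.3 CPM in bKO replicates 1 to 3 and 4.77, 27.9 and 0.89 CPM in WT replicates 1 to 3. It shares 3450 bases of exon with the annotated gene Gm49368, so its count is uncertain. Itgax, the CD11c chain, had 3.26 to 7.10 CPM in bKO libraries and 0 to 7.65 CPM in WT libraries. Itgam was highest in replicate 2 of each genotype, as the myeloid sum was, but that sum includes Itgam and Itgax themselves. The part of myeloid cells in the Itgam level was not tested.

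Itga7, a laminin-binding alpha chain, was at 8.80, 1.46 and 13.6 CPM in bKO replicates 1 to 3 and at 0.93, 0.12 and 1.19 CPM in WT replicates 1 to 3. Its genotypes did not overlap, with a log2 difference of 3.41 (SE 1.04), an unadjusted edgeR p of 0.0138 and an adjusted p of 0.9999. Itga9, an alpha chain that pairs with beta 1, averaged 0.25 ± 0.27 CPM in bKO and 1.40 ± 0.48 CPM in WT, also without overlap. Of the 12 other chains tested, only Itga7 and Itga9 had no overlap, where 7.76% of all genes had none. Only Itga7 and Itga2b had an unadjusted edgeR p under 0.05, where 2.88% of all genes did. Itga5, the fibronectin receptor chain, averaged 5.82 ± 4.78 CPM in bKO and 4.37 ± 1.23 CPM in WT. Itga2, a collagen-binding chain, averaged 4.02 ± 1.26 CPM in bKO and 3.18 ± 0.59 CPM in WT. Itga1, Itga3, Itgad and Itgb5 averaged 0.65 to 2.52 CPM in bKO and 1.06 to 2.48 CPM in WT, all with overlap.

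Genes that regulate integrins, associate with them or tie them to actin (the activation list) had log2 differences between -0.45 and 0.64. The list is not limited to activators, so its genes need not act in the same direction. Of 46 listed, 43 were tested, 0 were called by edgeR, and 1 (Cd81) had an unadjusted p under 0.05, where 2.88% of all genes did. Their log2 differences were above 0 for 18 and below 0 for 25, with a median of -0.042. The most abundant were Coro1a, an actin regulator (1756 ± 55.4 CPM in bKO and 1825 ± 98.8 CPM in WT), the GTPase Rac2 (1623 ± 151 CPM in bKO and 1671 ± 4.15 CPM in WT) and the GTPase Cdc42 (450.3 ± 62.2 CPM in bKO and 426 ± 52.0 CPM in WT). Next came Cd82, a tetraspanin (337 ± 70.3 CPM in bKO and 461 ± 70.4 CPM in WT), the adaptor Fyb (313 ± 29.9 CPM in bKO and 329.8 ± 21.0 CPM in WT) and Dock2, an activator of Rac (338 ± 38.3 CPM in bKO and 302 ± 10.8 CPM in WT). Talin itself, Tln1, was named after its values were seen, at 246, 227 and 234 CPM in bKO replicates 1 to 3 and 237, 236 and 260.4 CPM in WT replicates 1 to 3. The leukocyte kindlin Fermt3, likewise, had 203, 272 and 245 CPM in bKO replicates 1 to 3 and 321, 283 and 224 CPM in WT replicates 1 to 3.

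The tetraspanins Cd81 and Cd82, membrane proteins that associate with integrins, had the lowest log2 differences of that list, and Cd81 was the only 1 of its 43 tested genes without overlap between genotypes, where 7.76% of all genes had none. Cd81 stood at 97.4, 129 and 132 CPM in bKO replicates 1 to 3 and at 159, 169.9 and 160.5 CPM in WT replicates 1 to 3, a log2 difference of -0.45 (SE 0.14). The edgeR p of Cd81 was 0.0173 before adjustment. Its exons share 104 bases with a non-coding gene on the other strand, and it was singled out after its values were seen.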

How the data were processed

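The authors deposited raw read counts per gene for each of 6 libraries, with no normalization. Per the labels' protocols, Tregs were sorted by flow cytometry, and libraries were made with SMARTer ultra-low-input and NEBNext kits and read as single reads of 50 bases. The build was mm10 and the tools were featureCounts, STAR 2.3 and bcl2fastq 2.19.0.316, per the submitters' processing notes. Neither the annotation release nor strand use is stated there. No molecular identifiers are named, so PCR copies count as reads.

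Symbols, positions and exon lengths came from GENCODE M21 (GRCm38, the assembly of mm10), which matched 53274 of 53379 identifiers. bKO was compared with WT by edgeR 4.0.16 in R 4.3.3 (filterByExpr, TMM, robust quasi-likelihood F test, genotype as the only term), with Benjamini-Hochberg adjustment over 20475 genes and a threshold of 0.05. Ratios of chains used counts plus 2. Alternatives were limma-voom (limma 3.58.1), DESeq2 1.42.0, other scalings and filters, a replicate block, a set term and leaving out each library. The edgeR script was tested on simulated counts. Library pairs differed by 35.8 to 129 times the sampling noise (chi-square per degree of freedom), so none was counted as a copy of another.

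All 10 chains are named, with other integrin chains of at least 1 CPM on average in a genotype and the 6 most abundant genes of the activation list (4 for ligands). The members and lists were chosen with earlier results of these data known.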

Additional observations from a re-analysis of the deposited data

How the results depend on the processing

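For all genes, 0 were called by edgeR under every scaling, filter, term and left-out library, and by limma-voom (590 at an unadjusted p under 0.05 by edgeR, 750 by limma-voom), while DESeq2 called 63. The counts of integrin chains and of genes of the activation list called were 0 under every alternative, DESeq2 included. The median log2 difference of the chains lay between -0.32 and -0.12 when each library was left out, and between -0.20 and -0.16 under the other alternatives. Over the chains and Junb, 141 of 154 values kept their direction and their side of the threshold and 12 changed sign. Itga4 became 0.0023 with limma-voom, 0.026 with a set term and 0.0018 to 0.050 without bKO replicate 1 or 2 or WT replicate 1 or 2, within a range of -0.11 to 0.050 over the left-out libraries. Itgb1 became 0.079, 0.15 and 0.28 without bKO replicate 1, bKO replicate 2 and WT replicate 3 (range -0.40 to 0.28). Itgav became 0.032 without bKO replicate 1 and 0.021 without WT replicate 1 (range -0.41 to 0.032), and Itgb3 became -0.18 without bKO replicate 1 (range -0.18 to 0.44). Junb was called by DESeq2 only (-0.63, adjusted p = 0.00417). When single libraries were left out, the differences of 6 of the 9 pair ratios changed sign, with ranges of -1.14 to 0.21 for Itgae to Itgb7, -0.78 to 0.19 for Itgav to Itgb3, -0.18 to 0.26 for Itgal to Itgb2, -0.34 to 0.29 for Itga4 to Itgb1, -0.39 to 0.11 for Itga6 to Itgb1 and -0.26 to 0.14 for Itgav to Itgb1. The other 3 kept their sign, at 0.31 to 0.54 for Itga4 to Itgb7, 0.34 to 1.05 for Itgav to Itgb8 and -0.66 to -0.041 for Itgb7 to Itgb1. The causes were not tested. With the replicate number as a replicate block, 0 genes were called (712 unadjusted), and the median of the chains was -0.16. Same-numbered libraries deviated together with correlations of -0.095, 0.19 and 0.035, and only bKO replicate 2 correlated best with its own number, so the numbers were not taken as pairs. The common dispersion of the edgeR fit puts the variation between same-genotype libraries at 51.0% (as a coefficient of variation), and its part in the number of calls was not tested.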

Other observations

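Transcripts of integrin ligands and of the latent TGF-beta machinery were also measured. Of 15 listed genes 11 were tested and 0 were called by edgeR, with 9 log2 differences above 0, 2 below and a median of 0.30. The most abundant were Nrros, a latent TGF-beta anchor of myeloid cells (86.9 ± 17.0 CPM in bKO and 67.0 ± 15.0 CPM in WT), Icam2 (67.3 ± 7.59 CPM in bKO and 62.7 ± 5.78 CPM in WT) and Icam1 (62.8 ± 19.4 CPM in bKO and 65.2 ± 18.9 CPM in WT), both ligands of LFA-1. Lrrc32, the gene of GARP, which holds latent TGF-beta on Tregs, stood at 8.96, 25.3 and 49.5 CPM in bKO replicates 1 to 3 and at 30.3, 15.4 and 35.3 CPM in WT replicates 1 to 3. Tgfb3, singled out after its values were seen, stood at 2.52, 1.23 and 2.10 CPM in bKO replicates 1 to 3 and at 0.029, 0.32 and 0.40 CPM in WT replicates 1 to 3, with no overlap between genotypes. Its exons overlap those of non-coding genes, its WT counts were only 1, 11 and 16 reads, and its edgeR p was 0.0162 before adjustment. Of the 11 genes tested, 1 had no overlap, where 7.76% of all genes had none. An unadjusted edgeR p under 0.05 was found for 1 of the 11, where 2.88% of all genes had one.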
